A study of Mus musculus with 23 samples.

Results

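A segment of mouse chromosome 3 that holds Npr1 and Bcan was described gene by gene in Kdm2b fl/fl ESCs. It comprised every gene whose locus starts between positions 87000000 and 91000000 of mm9, apart from 6 left out by name (Efna1, Efna3, Efna4, Kcnn3, Rps27 and S100a4), and so held 128 of the 23369 gene names in the tables. The segment was chosen by the FPKM (fragments mapped per kilobase of transcript, scaled to the total of the library) of Npr1 and Bcan, which were lower in the tamoxifen samples of this same comparison. The differences reported for the segment are therefore a description of its members and carry no test of their own.

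PolyA+ RNA was sequenced from 3 samples labelled untreated and 3 labelled as treated with 4-hydroxytamoxifen for 72 hr. All 6 came from the same Kdm2b fl/fl ESC line at passages 10 to 20. Thus loxP sites flanked the ZF-CxxC exon of Kdm2b, and a tamoxifen-inducible Cre was present, in the untreated group as well. Per the paper, the floxed allele was made in MS12 ESCs, and the fl/fl lines with Cre came from mated mice. Cells were grown on mouse embryonic fibroblast feeders and settled overnight without them before treatment. No sample received tamoxifen without the floxed alleles, and so the drug, Cre activity and loss of the domain cannot be told apart. The sample labels give the dose as 800 nM and the series text as 800 µM. Groups were set by the sample labels, whereas the names of the deposited tables point to the reverse assignment in all 6 samples, under which every sign in the text would turn and every size would stay. Kdm2b itself, counted over the whole gene and so not specific for the deleted exon, read 27.0, 21.5 and 27.7 FPKM in untreated and 19.9, 21.9 and 25.04 FPKM in tamoxifen samples. ESC markers (8 of 8 tested) summed to between 2703 and 3717 FPKM in untreated and between 2982 and 5238 FPKM in tamoxifen samples, and none was at 0. Dppa5a was the largest of them, at 1401 to 2221 FPKM in untreated and 1582 to 3534 FPKM in tamoxifen samples. Only Nanog had all tamoxifen values (194 to 205 FPKM) above all untreated values (104 to 188 FPKM), beside 3.09% of all genes tested. None of the 8 had the reverse, beside 5.4%. The tables carry no counts, and the relative depth inferred from steps between low values ran from 0.653 to 1.00 of untreated sample 1.

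Npr1 encodes the guanylyl cyclase receptor that makes cGMP when it binds atrial or B-type natriuretic peptide. Bcan encodes brevican, a lectican proteoglycan of the extracellular matrix of the brain. The segment also carries nestin (Nes), a cluster of S100 genes for small calcium-binding proteins, and many housekeeping genes for RNA processing, mitochondria and protein folding. KDM2B reads DNA through its ZF-CxxC domain, which binds unmethylated CpG dinucleotides, and brings a PCGF1-containing PRC1 complex to CpG islands, the CpG-rich stretches at many promoters.

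The promoters of Bcan and Npr1, the members with the lowest log2 differences among those called lower when replicate numbers were used as a block, and of S100a16 and Rab25, the highest among those called higher, are shown because the ZF-CxxC domain recognises CpG. Each runs 5′ to 3′ on the strand of the gene from 250 bases before to 50 bases after the start of the locus in the tables, in mm9 (NCBIM37), and capitals mark every CG.
Npr1, chr3:90269739-90270038, minus strand: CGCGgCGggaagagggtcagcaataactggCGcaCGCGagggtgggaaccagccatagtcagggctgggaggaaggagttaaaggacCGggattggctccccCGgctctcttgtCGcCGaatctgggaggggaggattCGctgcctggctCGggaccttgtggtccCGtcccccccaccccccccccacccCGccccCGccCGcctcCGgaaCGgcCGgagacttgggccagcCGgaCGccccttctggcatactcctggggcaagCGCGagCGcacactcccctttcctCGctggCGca
Bcan, chr3:87804229-87804528, minus strand: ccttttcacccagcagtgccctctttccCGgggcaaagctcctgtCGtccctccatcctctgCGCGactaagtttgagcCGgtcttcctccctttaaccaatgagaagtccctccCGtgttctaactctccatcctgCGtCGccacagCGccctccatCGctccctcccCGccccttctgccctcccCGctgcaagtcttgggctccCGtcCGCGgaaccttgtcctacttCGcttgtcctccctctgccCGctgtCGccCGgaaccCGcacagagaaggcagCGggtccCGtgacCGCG
S100a16, chr3:90344895-90345194, plus strand: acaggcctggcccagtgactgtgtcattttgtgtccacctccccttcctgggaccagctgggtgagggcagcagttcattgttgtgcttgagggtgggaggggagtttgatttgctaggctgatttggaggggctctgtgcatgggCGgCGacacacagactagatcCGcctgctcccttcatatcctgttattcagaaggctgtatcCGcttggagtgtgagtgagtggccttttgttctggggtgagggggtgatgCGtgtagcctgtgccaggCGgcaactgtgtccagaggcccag
Rab25, chr3:88352152-88352451, minus strand: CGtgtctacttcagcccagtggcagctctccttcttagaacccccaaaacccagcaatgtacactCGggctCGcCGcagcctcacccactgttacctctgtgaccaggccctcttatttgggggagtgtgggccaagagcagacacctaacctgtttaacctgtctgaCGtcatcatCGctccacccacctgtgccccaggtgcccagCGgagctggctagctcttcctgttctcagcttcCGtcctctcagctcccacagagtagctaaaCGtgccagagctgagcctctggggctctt
Npr1 held 26 CG in these 300 bases and Bcan 24, whereas Rab25 held 9 and S100a16 held 6. Of all 21032 promoters read in the same way, 78.2% held as many as Npr1 or fewer, 74.0% as many as Bcan or fewer, 41.8% as many as Rab25 or fewer and 34.3% as many as S100a16 or fewer, and 95.3% held at least 1 CG. The GENCODE annotation starts S100a16 further upstream as well, so the window covers only the start used in the tables. Over the 1000 bases centred on each start, the ratio of observed to expected CpG was 0.83 at Npr1 and 0.79 at Bcan, against 0.29 at Rab25 and 0.19 at S100a16.

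Npr1 was lower in all tamoxifen samples. It spans chr3:90254514-90269788 on the minus strand and read 9.02, 11.8 and 8.37 FPKM in untreated samples 1 to 3 and 5.46, 5.05 and 4.37 FPKM in tamoxifen samples 1 to 3. The lowest untreated sample stood above the highest tamoxifen sample, and the group means were 9.72 ± 1.81 and 4.96 ± 0.552 FPKM (SD, n = 3 each), 1.96-fold apart. On the log2(FPKM + 0.1) scale, used for all differences below, the difference of tamoxifen minus untreated was -0.95, with a standard error of 0.23, or 0.13 with the replicate number as a block. Within the replicate numbers it was -0.71, -1.21 and -0.92.

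Bcan (chr3:87791453-87804278, minus strand) was expressed at a low level and had the lowest difference of the tested members. It read 2.57, 2.59 and 0.842 FPKM in untreated samples and 0.657, 0.710 and 0.432 FPKM in tamoxifen samples. The groups did not overlap, but untreated sample 3 lay close to the tamoxifen range. The difference was -1.46, with a standard error of 0.46 without and 0.25 with the block, and the means were 3.34-fold apart. Within replicate numbers 1 and 2 it came to -1.82 and -1.73, and within number 3 to -0.83. The size of the Bcan difference depended on the pseudocount. At a pseudocount of 1 the difference over all samples was -0.85, close to that of Npr1 at the same setting (-0.84).

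Among the 3 genes on each side of Npr1, Slc27a3 was the only other one called lower when replicate numbers were used as a block. At lower coordinates, Ints3, a subunit of the Integrator complex, read 35.9, 32.3 and 35.3 FPKM in untreated and 29.9, 31.4 and 29.8 FPKM in tamoxifen samples, a difference of -0.18. Its groups did not overlap, by a margin of less than 1 FPKM. Slc27a3, of the fatty acid transport protein family, read 8.14, 15.3 and 7.10 FPKM in untreated and 5.37, 7.87 and 5.01 FPKM in tamoxifen samples, with overlapping groups and a difference of -0.68. Gatad2b, a NuRD complex component, was set by a single low library: it read 2.68 FPKM in tamoxifen sample 1 and between 8.46 and 15.5 FPKM in the other 5 samples, and its difference of -0.53 became 0.23 without that library. On the other side of Npr1, Ilf2 differed by 0.17, Snapin by 0.17 and Chtop by 0.15, although Ilf2 came to -0.02 without untreated sample 2. The loci of Ilf2 and Snapin overlap each other, and their reads may be shared.

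Around Bcan the lower values extended on one side. Nes, the intermediate filament of neural progenitors, read 18.0, 14.7 and 13.5 FPKM in untreated samples and 10.5, 10.4 and 10.4 FPKM in tamoxifen samples. All untreated values lay above all tamoxifen values, and the difference was -0.55 with a standard error of 0.21, or 0.12 with the block. Crabp2, which carries retinoic acid in the cell, read 40.2, 13.7 and 20.0 FPKM in untreated and 21.7, 10.4 and 15.9 FPKM in tamoxifen samples. These groups overlapped, although each tamoxifen sample was below the untreated sample of its number, and the difference was -0.53. Beyond them Isg20l2 differed by -0.05, and on the far side of Bcan Gpatch4 differed by 0.07 and Apoa1bp by 0.18. Hapln2, a link protein gene next to Bcan, was at 0 in 5 samples and at 0.02 FPKM in tamoxifen sample 2.

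**Figure D1:**
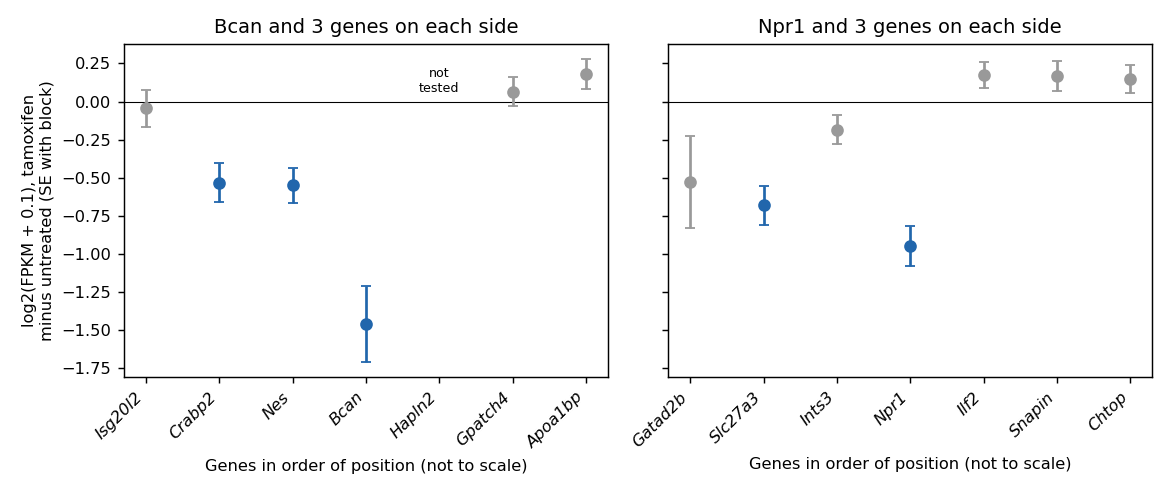
Difference of mean log2(FPKM + 0.1), tamoxifen minus untreated, for Bcan, Npr1 and the 3 genes on each side of them in order of position; points are differences over 3 samples a group, bars the standard error with the replicate block, and blue points genes called lower with the block. Bcan (-1.46) and Npr1 (-0.95) lie below every neighbour drawn with them.

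Of the 128 members, 95 passed the filter of at least 0.5 FPKM in at least 3 of the 6 samples (74.2%, against 55.6% of all gene names). With limma over all 12997 genes tested and no block, 0 members were called higher and 0 lower at an adjusted p below 0.05, and the background was 0.0231% called higher and 0.00769% called lower. An unadjusted p below 0.05 was reached by 5 members (5.26%) and by 4.79% of all genes. With the replicate number as a block, 6 members (6.32%) were called higher and 10 (10.5%) lower, beside 4.33% and 6.06% of all genes. Groups did not overlap for 1 higher member (1.05%) and 6 lower members (6.32%), beside 3.09% and 5.4% of all genes. Since the segment was chosen on this contrast, nothing is read from these shares. The blocked calls depended on replicate number 2. Without it 0 members were called in either direction, while Npr1 differed by -0.82, Bcan by -1.32, Nes by -0.58, Zbtb7b by -0.79 and S100a16 by 1.30. Without number 1 there were 5 higher and 15 lower, and without number 3 there were 2 higher and 5 lower. Over all 12997 genes tested the blocked calls without number 2 came to 36 higher and 43 lower. They came to 744 and 1011 without number 1, and to 359 and 478 without number 3.

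The 6 lower members with groups that did not overlap were Npr1, Bcan, Nes, Zbtb7b, Shc1 and Ints3, and the higher one was S100a16. Zbtb7b, the transcription factor ThPOK of CD4 T cell commitment, read 9.41, 8.40 and 9.42 FPKM in untreated and 5.61, 6.003 and 5.22 FPKM in tamoxifen samples. The gap between its groups was wide against their spread, with means of 9.07 ± 0.586 and 5.61 ± 0.391 FPKM (SD, n = 3 each) and a difference of -0.68. Its locus overlaps Gm15417, at 0.233 to 0.804 FPKM in the 6 samples, and whether the quantification used strand is not given in the sources used here. Shc1, an adaptor of receptor tyrosine kinases, read 37.9, 32.5 and 36.8 FPKM in untreated and 30.0, 31.1 and 30.8 FPKM in tamoxifen samples. As at Ints3, untreated sample 2 came within 2 FPKM of the tamoxifen samples, and the difference was -0.22.

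**Figure D2:**
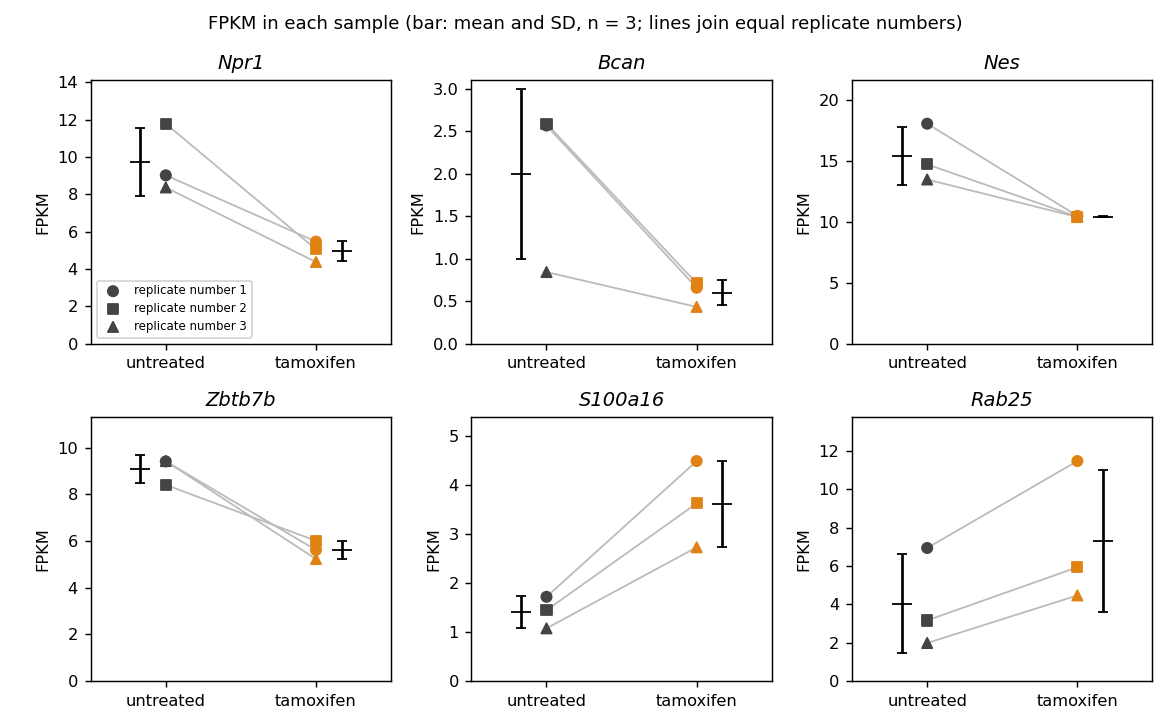
FPKM of 6 members in each of the 6 samples; markers stand for replicate numbers, grey lines join equal numbers, and horizontal bars with whiskers give the mean and SD (n = 3). Npr1, Bcan, Nes and Zbtb7b were lower and S100a16 higher in tamoxifen samples without overlap, and Rab25 was higher within each number but overlapped between groups.

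S100a16, which encodes an EF-hand calcium-binding protein, had the highest difference of the tested members. It read 1.72, 1.44 and 1.07 FPKM in untreated and 4.49, 3.62 and 2.73 FPKM in tamoxifen samples. Every tamoxifen value exceeded every untreated value, the means were 2.56-fold apart, and the difference was 1.29 with a standard error of 0.30, or 0.15 with the block. It was nearly the same in the replicate numbers, at 1.34, 1.27 and 1.27. With a pseudocount of 1 in place of 0.1 it shrank to 0.93.

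Rab25, a small GTPase of epithelial recycling endosomes, varied more between replicate numbers than between groups. It read 6.94, 3.16 and 1.98 FPKM in untreated and 11.5, 5.93 and 4.46 FPKM in tamoxifen samples. The groups overlapped, but every number was higher after tamoxifen, by 0.72, 0.89 and 1.13, and the difference was 0.91. Its standard error was 0.49 without the block and 0.13 with it.

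Of the other members called with the block, named here after their values were seen, Slc27a3, Crabp2, Pbxip1, Adam15, Rusc1 and 0610031J06Rik were lower with overlapping groups. Pbxip1, a binding partner of PBX homeodomain proteins, differed by -0.58, Adam15, a membrane metalloprotease, by -0.51, Rusc1 by -0.47 and 0610031J06Rik by -0.38. Fdps, which makes farnesyl diphosphate in the mevalonate pathway, read 78.7, 46.8 and 36.9 FPKM in untreated and 101, 62.6 and 55.7 FPKM in tamoxifen samples, a difference of 0.46. Hax1, a mitochondrial protein that protects from apoptosis, differed by 0.48, Msto1, whose locus overlaps Gon4l, by 0.35 and the lincRNA 1700113A16Rik by 0.58. All 16 members called with the block kept 1 direction within each replicate number. The blocked fit itself favours such members, so nothing is read from this. Of all 95 tested members, 33 were lower and 21 higher within each number. With the block and a scaling of each sample to the same FPKM sum (TPM), only Npr1, Bcan, S100a16 and Rab25 of the 16 were called.

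Most members of the S100 cluster were silent or scattered between samples. Of its 11 members 5 were tested. With the block 1 was called higher (S100a16) and 0 lower, beside 4.33% and 6.06% of all genes. S100a6, the most abundant, ranged from 150.0 to 274 FPKM in untreated and from 164 to 192 FPKM in tamoxifen samples. S100a13 read 16.01, 9.91 and 15.9 FPKM in untreated and 14.4, 5.91 and 7.34 FPKM in tamoxifen samples, with overlapping groups and a difference of -0.67. S100a1 and S100a3 also overlapped, with differences of -0.33 and -0.66. The median over the 5 was -0.33, and S100a2, S100a5 and S100a9 were at 0 in all 6 samples.

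A list of 13 genes of the segment with a neural role or relation, with adaptors such as Shc1 among them, had a median difference of -0.45 over the 11 of 13 tested, against -0.02 over all tested genes. The list was chosen with earlier results known and holds Bcan, whose values chose the segment, so nothing is read from this median. With the block 4 were called lower (Nes, Bcan, Crabp2 and Rusc1) and 0 higher, beside 6.06% and 4.33% of all genes. Without overlap 3 were lower (Nes, Bcan and Shc1), beside 5.4% of all genes. Syt11, of the synaptotagmin family, read 10.4, 23.6 and 11.2 FPKM in untreated and 6.46, 13.3 and 10.4 FPKM in tamoxifen samples, and its groups overlapped. Chrnb2, a nicotinic receptor subunit, was at 0 throughout. Most tested early lineage markers elsewhere in the genome were lower too: Gata4, Gata6, Eomes, Sox1 and Pax6, 5 of the 8 listed and of the 6 tested, were lower without overlap and called lower with the block. Of all genes 5.4% were lower without overlap and 6.06% were called lower with the block. T, the other tested marker, read 0.86, 0.78 and 0.71 FPKM in untreated and 0.61, 1.12 and 1.66 FPKM in tamoxifen samples, a difference of 0.38 with overlapping groups. The summed level of the 8 ran from 13.04 to 19.4 FPKM in untreated and from 6.90 to 10.2 FPKM in tamoxifen samples, and none of the 8 was at 0 in all samples. Their part in the lower values of Nes, Bcan and Npr1 was not tested. In these bulk samples, fewer cells of a type and less RNA per cell cannot be told apart. Feeder fibroblast markers (11 of 12 tested) summed to between 234 and 540 FPKM in untreated and between 266 and 430 FPKM in tamoxifen samples, with a median difference of 0.03, and 1 of them, Twist1, was called lower with the block.

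Genes for membrane receptors and other surface proteins, with Npr1 among them, had a median difference of -0.31 over the 8 of 12 tested. With the block 3 were called lower (Npr1, Slc27a3 and Adam15) and 0 higher, beside 6.06% and 4.33% of all genes. Since the values of Npr1 chose the segment, nothing is read from this median or count. Muc1, the membrane mucin, read 1.42, 2.55 and 0.853 FPKM in untreated and 0.802, 1.14 and 0.639 FPKM in tamoxifen samples, with overlapping groups.

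Transcription and chromatin genes (14 of 14 tested, 13 of them in the segment) had a median of -0.19, and Zbtb7b (lower) was the only one called with the block. Over all genes 4.33% were called higher with the block and 6.06% lower. Hdgf, a growth factor and the most abundant of them, differed by 0.27 and Prcc by 0.31, and the groups of both overlapped. Ash1l, a histone methyltransferase, differed by -0.36 and Etv3, an ETS factor, by -0.31, both with overlapping groups. RNA and protein processing genes with other housekeeping genes (26 of 26 tested) had a median of 0.07. With the block 2 of these were called higher (Fdps and Hax1) and 0 lower. Cct3, a chaperonin subunit and the most abundant tested member, read 337, 191 and 259 FPKM in untreated and 401, 258 and 299 FPKM in tamoxifen samples. Its spread between replicate numbers exceeded its difference of 0.30.

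Other genes of the pathways of Npr1 and Bcan, all outside the segment except Hapln2, are given for context. Of 10 natriuretic peptide and cGMP genes 6 were tested, and with the block 2 were called lower, Npr1 and Npr3, and 0 higher. Npr3, the clearance receptor, read 1.63, 2.35 and 1.93 FPKM in untreated and 0.31, 0.67 and 0.75 FPKM in tamoxifen samples, a difference of -1.67 without overlap. Nppb, the B-type peptide, ranged from 1.27 to 3.46 FPKM in untreated and from 2.70 to 3.71 FPKM in tamoxifen samples, and Nppa stayed at or below 0.22 FPKM. Of 10 lectican, link protein and tenascin genes 7 were tested, and with the block 4 were called lower (Bcan, Vcan, Hapln4 and Tnc) and 0 higher. Over all genes 6.06% were called lower with the block and 4.33% higher. The segment was chosen by the values of Npr1 and Bcan, so their calls add nothing to either count. Vcan, the lectican versican, read 6.30, 9.48 and 8.82 FPKM in untreated and 4.88, 5.62 and 4.74 FPKM in tamoxifen samples. Bcan, Vcan and Hapln4 did not overlap between groups, whereas Tnc and Ncan did.

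Along the segment, higher and lower members were interspersed. In windows of 0.5 Mb the median difference lay between -0.27, in the first window with only 2 tested members, and 0.00. The window that starts at 88000000 had a median of 0.00 over 19 members and the one at 90000000, which holds Npr1 and S100a16, had -0.18 over 19 members with a range from -0.95 to 1.29. For the 94 pairs of tested members next to each other, Pearson's r of the differences was 0.02 and the median gap within a pair was 0.31. Over all 12969 such pairs in the genome r was 0.06 and the gap 0.29. These values describe genes of the same 6 libraries, which are not independent. Differences had the same sign in 52 of the 94 pairs (55.3%), against 52.7% of all pairs. At the edges, Fcrls, the first gene of the segment, and 9130204L05Rik, its last, were at 0. Kirrel, the last gene before the segment, was expressed at 7.61 to 18.4 FPKM and differed by 0.26. Pglyrp3, the first gene after it, starts at 91818505 and stayed at or below 0.0427 FPKM.

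**Figure D3:**
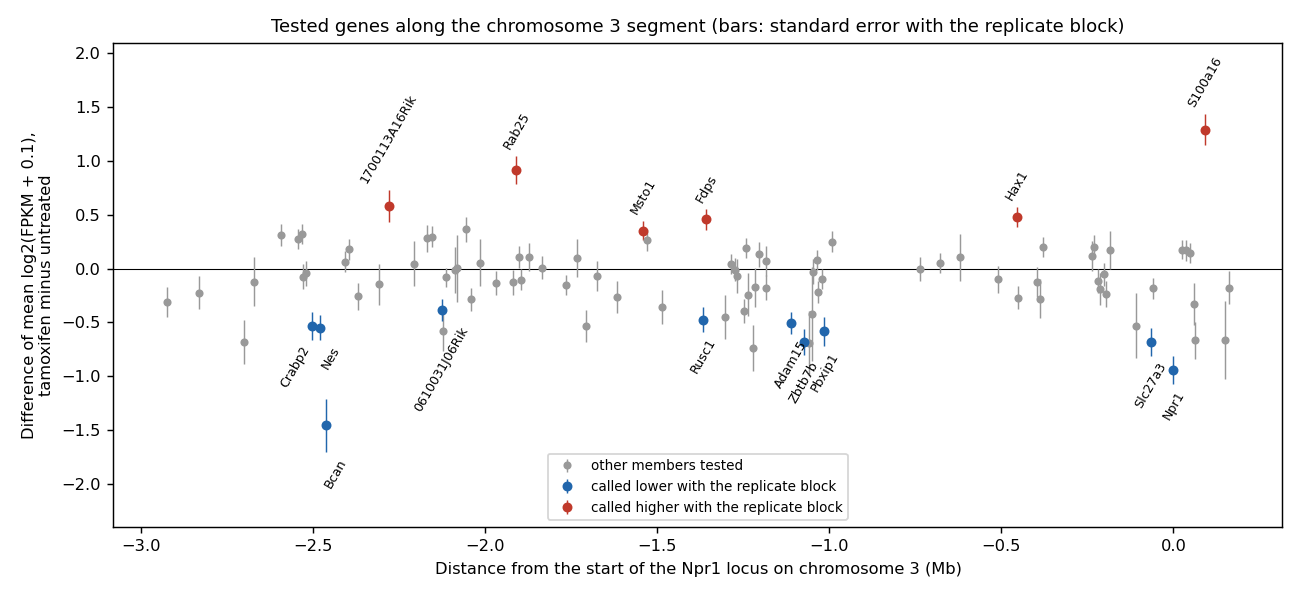
Difference of mean log2(FPKM + 0.1), tamoxifen minus untreated, of the 95 tested members against the distance of each locus start from that of Npr1 in Mb; bars are standard errors with the replicate block (3 samples a group), and colours mark the 10 members called lower (blue) and 6 called higher (red) with the block. Blue and red points are interspersed along the segment, and most grey points lie within 0.3 of 0.

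Over the tested members the median difference was -0.10 (25th to 75th percentile -0.30 to 0.11), against -0.02 over all genes tested. The difference was below 0 for 58 of the 95 (61.1%) and for 52.8% of all genes, and within 0.3 of 0 for 62 (65.3%) and 68.0%. Scaling to TPM moved the median of all genes to 0.08 and that of the members to 0.00, which turned its sign. The members lay below all genes by 0.08 with either scaling and by 0.07 after quantile normalization.

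Differences below 0 were more frequent among members of low or middling expression. The 31 members at a mean of 30 FPKM or more had a median of 0.12, with 10 below 0, whereas the 39 between 5 and 30 FPKM had -0.15, with 31 below 0, and the 25 under 5 FPKM had -0.22, with 17 below 0. Over all tested genes the same classes had medians of 0.10, -0.03 and -0.12, with 886 of 2810, 3121 of 5636 and 2850 of 4551 below 0. After quantile normalization the medians were 0.04, -0.15 and -0.12 for members. For all tested genes they were then 0.04, 0.01 and -0.01. With the block, 8 of the 10 members called lower lay between 5 and 30 FPKM, the class of 39 of the 95 tested members. Over all 12997 tested genes this class held 5636, and 364 of the 787 called lower. Pearson's r between the difference and the log2 mean FPKM was 0.36 over the 95 members and 0.11 over all tested genes, as a description across genes of the same libraries.

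**Figure D4:**
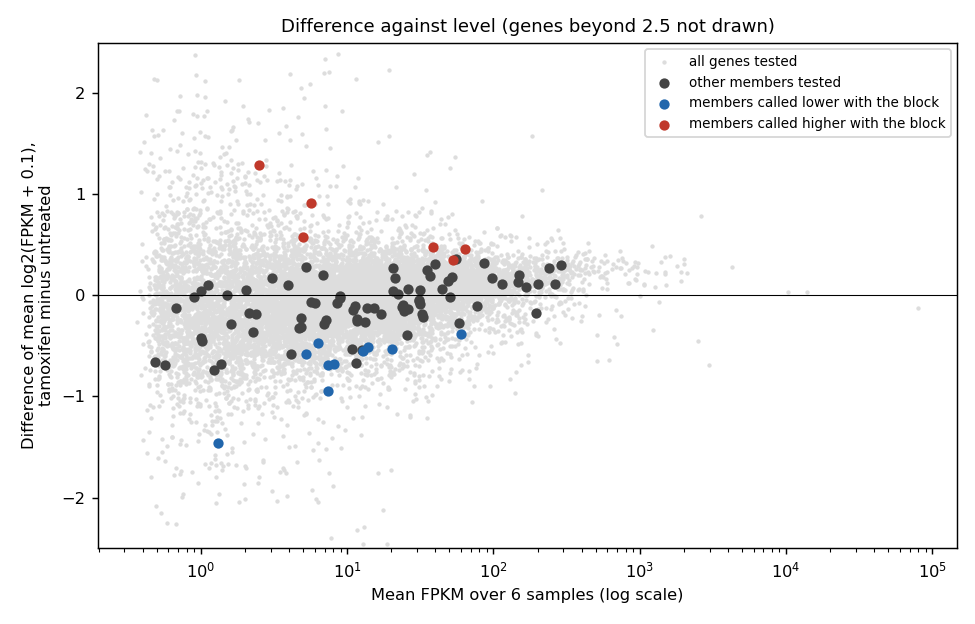
Difference of mean log2(FPKM + 0.1), tamoxifen minus untreated, against the mean FPKM over 6 samples (log axis) for all tested genes (light grey) and the tested members (dark grey, blue called lower, red called higher with the replicate block). Members at 30 FPKM or more sit mostly above 0 (median 0.12) and those from 5 to 30 FPKM mostly below (median -0.15).

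Promoter CpG content was read for the 118 members whose strand was found in the annotation. Their median was 12.5 CG in 300 bases, against 14 over all promoters, and 40 (33.9%) were CpG-rich, with an observed to expected ratio of at least 0.6 and at least 55% G and C over 1000 bases, against 41.2% of all. The 10 members called lower with the block held between 5 and 26 CG, with a median of 16, and 5 were CpG-rich. The 6 called higher held between 6 and 28 CG, with a median of 19.5, and 2 were CpG-rich. Thus the contrast between Npr1 or Bcan and S100a16 or Rab25 did not extend to all members called: 0610031J06Rik (lower) held 5 CG and 1700113A16Rik (higher) held 28. The tested members that were not called had a median of 15 CG, with 31 of 75 CpG-rich.

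The other 33 members did not pass the filter. Of these 15 were at 0 in all 6 samples, among them Fcrls, Chrnb2, Rxfp4, Pglyrp4 and 5 miRNA genes, whose short transcripts polyA+ libraries capture poorly. The remaining 18 were above 0 in at least 1 sample, and the highest value, 3.00 FPKM for 1500004A13Rik, occurred in untreated sample 2 alone, at a locus that overlaps 5830417I10Rik. Untested members had few CG at their promoters: a median of 4 over 27 promoters, with 2 CpG-rich. In all, 19 members overlap another locus, and Gm9846, which overlaps Rps27, was marked in the tables as having low data.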

How the data were processed

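The authors aligned paired-end reads to mm9 and obtained expression with Cuffdiff on refGene models, per their methods, and deposited 1 table of FPKM values per sample. FPKM were summed by gene name, and 6 names whose quantification had failed in a sample were left out after the tables were seen. Differences were fitted with limma 3.58.1 (R 4.3.3, with a trend in the prior variance) on log2(FPKM + 0.1) for the 12997 names with at least 0.5 FPKM in at least 3 samples, with Benjamini-Hochberg adjustment over all of them. The script was tested on simulated data. Members, gene lists and the rule for named genes (Npr1, Bcan, 3 neighbours on each side, members without overlap and list members) were chosen with earlier results of these data known. Replicates are biological per the methods, and equal replicate numbers paired the samples: their deviations from the group means correlated at 0.54, 0.61 and 0.51, against -0.38 to -0.11 for unequal numbers. Deviations from a group mean sum to 0, so the negative values partly follow from the positive ones. The study's methods name no block, so a block was an alternative. Promoters were read from NCBIM37 with GENCODE vM1 strands. Loci begin 1 base before the GENCODE start in 48.3% of cases, so 1 was added to printed starts. The 17 ChIP and input samples were not analysed here.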

Additional observations from a re-analysis of the deposited data

How the results depend on the processing

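Without a replicate block, 0 members were called under each alternative run: a pseudocount of 1 or 0.01, no filter, at least 1 FPKM in all 6 samples, no variance trend, the highest row per name, failed names kept, TPM scaling, quantile normalization, loci under 300 bases left out, and each sample left out. With the replicate block 6 members were higher and 10 lower, with block and quantile normalization 4 and 7, and with block and TPM scaling 2 and 2, all of them among the first 16. Over all genes tested the same settings called 563 higher and 787 lower, 604 and 595, and 430 and 336. Leaving out a sample or a replicate number gave 0 to 5 higher and 0 to 15 lower calls, medians from -0.158 to -0.033, and 9 to 36 members without overlap, against 7 in full, as fewer samples overlap less. The median was -0.057 after quantile normalization, with or without the block, 0.0036 after TPM scaling, with or without the block, -0.186 with short loci left out and TPM scaling, where 11 members did not overlap, and -0.036 without a filter; the cause was not tested. Shares of all genes without overlap are not given for these alternatives, so nothing about the members is read from such counts. Of 351 values of single genes under these alternatives, 340 moved by less than the spread between replicates, and 11 moved further. The block, the variance trend, the filter, the highest row and the failed names each left these differences unchanged. Quantile normalization and TPM scaling gave the same differences with and without the block. The 351 values therefore include many repeats and say less about stability than their number. The sign changed in 13 of the 351 values, at 5 genes whose groups overlap: Gatad2b, Isg20l2, Gpatch4, Apoa1bp and Ilf2. Depth is known only as a ratio, so members under 1 FPKM carry no counting interval, and 3 samples a group limit every value.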
